A study of Mus musculus with 6 samples.

Results

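The genes described here encode Sonic hedgehog (Shh) and the proteins that release it from cells or meet it at the cell surface. The 10 member genes, chosen by name, were Shh, Disp1, Scube2, Hhip, Ptch1, Boc, Cdon, Gas1, Lrp2 and Smo. All 10 were measured, out of 22180 genes in all, each by a probe set that names it and no other gene. None of the 10 had more than 1 such probe set, so the choice of the brightest for each gene did not act on them.

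Livers of 6 male C57BL/6 mice were profiled, with 1 Affymetrix array per mouse. The SHH group was 3 livers made to express SHH (mice 26, 28 and 31), and the GFP group was 3 livers made to express green fluorescent protein (mice 13, 21 and 6). Per the series' design text, genes were brought in by hydrodynamics-based transfection, in which DNA injected quickly with much fluid enters mainly hepatocytes. All mice came from a specific-pathogen-free room with no further treatment, per the labels. The sources used here do not give the age of the mice, the promoter of the introduced genes, the time after injection or the species from which the SHH sequence came. The comparison asks how ligand made in the liver affects the genes through which tissue produces and receives it.

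Hedgehog ligands are secreted lipid-modified proteins. Without ligand, the receptor Ptch1 keeps the transducer Smo inactive, and ligand binding lifts that block so that Gli transcription factors switch on their targets. Ptch1 and Hhip are themselves targets in many tissues, and both bind and hold back the ligand. In liver, cells of mesenchymal type such as stellate cells are regarded as the main responders.

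Each array gave 41345 log2 signals, with medians of 4.32 to 4.40 in SHH livers and 4.36 to 4.39 in GFP livers. The 6 hepatocyte markers had log2 signals above their arrays' upper quartiles in all libraries, and their mean differed by 0.05 between the groups, so the tissue label held. Pearson correlations over probe sets were 0.975 to 0.979 within SHH livers, 0.975 to 0.979 within GFP livers and 0.971 to 0.981 between the groups. No gene passed an adjusted p of 0.05 (limma with Benjamini-Hochberg adjustment, 0 of 22180, or 0%), while at an unadjusted p under 0.05 there were 738 higher and 889 lower genes. Without SHH 26, 30 genes passed upward and 16 downward. Whether the mice of a group shared a litter or an injection day is not stated, so p-values measure the spread between these mice.

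Among the members, Hhip and Shh had higher signal in every SHH liver than in any GFP liver. The median difference of the 10 members, SHH minus GFP, was -0.13 on the log2 scale, against -0.03 over all genes. Their means were higher in SHH livers for 4 members and lower for 6, where 43.8% of all genes were higher and 56.2% lower. Groups without overlap were found upward for 2 of 10 members, against 5.26% of all genes, and downward for 0 of 10, against 7.25%. At an unadjusted p under 0.05, 2 members were higher (3.33% of all genes were) and 1 was lower (4.01%). Both upward counts include Shh, which encodes the ligand that the SHH livers were made to express. A second Shh probe set, described below, differed by 0.17 with overlap.

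**Figure D1:**
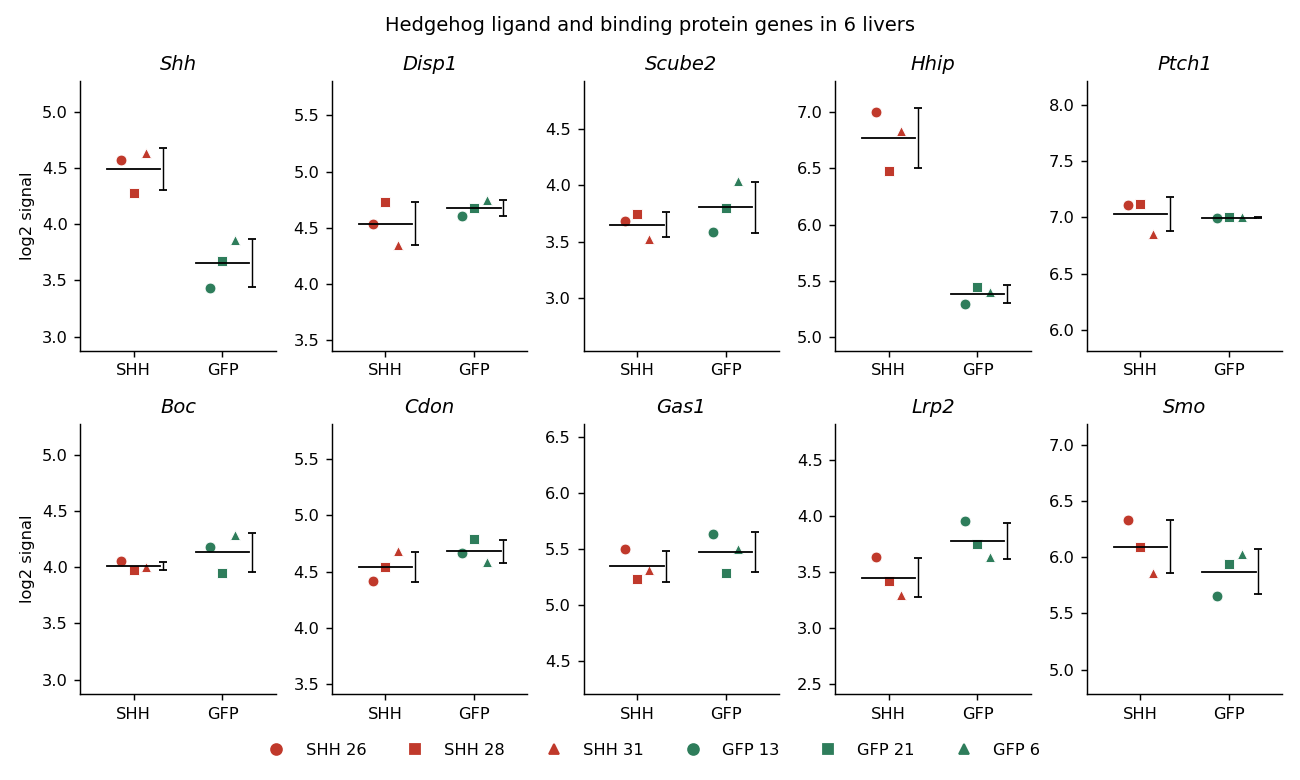
Log2 signal of each member gene in 3 SHH livers (left, red) and 3 GFP livers (right, green), with the mean as a line and the SD as a bar (n = 3 each); every panel spans the same number of log2 units around its own midpoint. Shh and Hhip are the panels in which the groups do not overlap, with SHH means of 4.49 and 6.77 against GFP means of 3.65 and 5.38.

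Shh encodes the ligand itself, and the SHH livers were made to express SHH from a sequence of unstated species. Whether the array's probes match that sequence was not tested. The probe set naming Shh alone had log2 signals of 4.57, 4.28 and 4.63 in SHH mice 26, 28 and 31, against 3.43, 3.67 and 3.86 in GFP mice 13, 21 and 6. The lowest SHH liver lay 0.42 above the highest GFP liver. SHH livers averaged 4.49 ± 0.19 and GFP livers 3.65 ± 0.21 (SD, n = 3 each), a 1.79-fold difference with a 95% interval of 1.40 to 2.29-fold. It had the 30th smallest unadjusted p of all genes and did not pass (limma, adjusted p = 0.356). Differences at least as large upward were found for 143 genes (0.645%). All 3 GFP values and that of SHH 28 were below their arrays' medians.

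A second probe set, naming both Shh and the long noncoding RNA gene 9530036O11Rik, gave a smaller difference. Its signals were 5.02, 5.15 and 4.67 in SHH mice 26, 28 and 31, against 4.77, 4.79 and 4.75 in GFP mice 13, 21 and 6. Here SHH 31 lay below every GFP liver, while SHH 26 and SHH 28 lay above them. The difference was 0.17 (95% interval -0.19 to 0.54), with every probe set fitted on its own (limma, adjusted p = 0.902). In that same fit the probe set naming Shh alone differed by 0.84 (0.45 to 1.23; limma, adjusted p = 0.490). Within each liver, the first probe set minus the second was -0.45 ± 0.41 in SHH livers and -1.12 ± 0.22 in GFP livers (SD, n = 3 each). The gap of 0.66 had an exact permutation p = 0.1, the smallest that 3 livers against 3 can give.

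The second probe set matters because the strand that each Shh probe set reads is not recorded in the files. Mouse Shh lies at chr5:28456840-28467101 (GRCm38.p6, RefSeq) and is transcribed from the reverse strand. The gene 9530036O11Rik starts at position 28466984, inside the Shh span, and runs the other way. Identifiers of probe sets on this array run along the strands: of 15859 single-gene probe sets checked, 96.6% named a gene on the strand of most of their 20 nearest neighbours. For the probe set naming Shh alone, 19 of 20 neighbours were forward-strand genes and 1 was a reverse-strand gene. For the probe set naming both genes, 0 were forward-strand and 20 were reverse-strand genes. The other 9 members lay among neighbours mostly of one strand, which was the gene's own strand for each of the 8 members with a strand in the table. So the Shh signal that separated the groups came from a probe set placed among genes of the opposite strand, and what its probes detect was not tested. The probe set naming 9530036O11Rik alone had 3.19, 3.47 and 3.62 in SHH mice 26, 28 and 31, against 3.78, 3.69 and 3.41 in GFP mice 13, 21 and 6, with overlap.

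**Figure D2:**
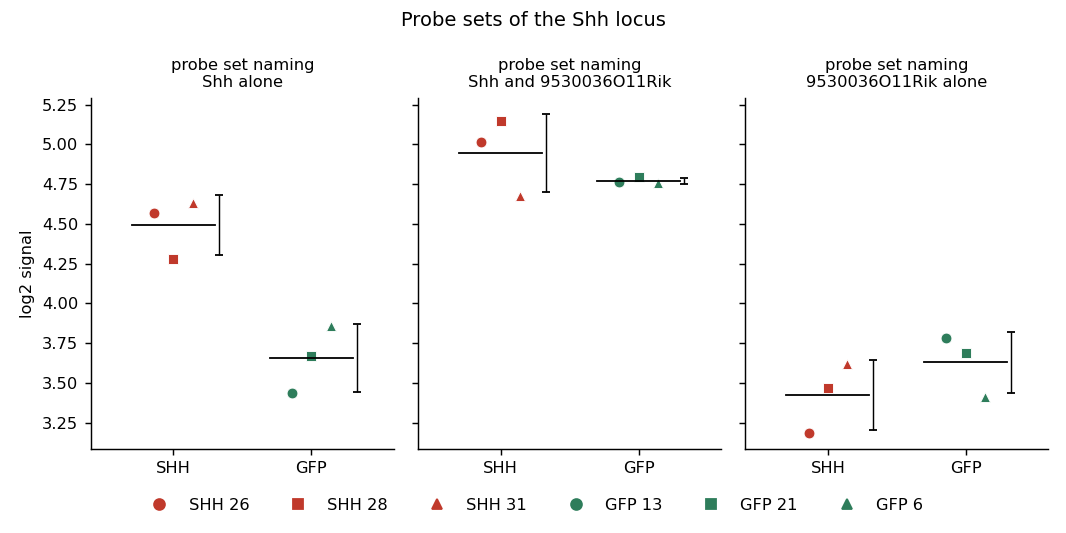
Log2 signal of the 3 probe sets of the Shh locus in SHH livers (left, red) and GFP livers (right, green), with mean and SD (n = 3 each). The groups are apart in the first panel, where the lowest SHH value is 4.28 and the highest GFP value 3.86, and overlap in the other panels.

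Release of the ligand needs Disp1, a membrane protein that extrudes it, and Scube2, a secreted carrier that takes it up. Neither was higher in SHH livers. Disp1 had log2 signals of 4.53, 4.73 and 4.34 in SHH mice 26, 28 and 31, against 4.61, 4.68 and 4.75 in GFP mice 13, 21 and 6. The highest SHH value lay within the GFP range, and the other SHH values lay below it. The difference was -0.14 (95% interval -0.45 to 0.17). Scube2 had 3.68, 3.75 and 3.52 in SHH mice 26, 28 and 31, against 3.58, 3.79 and 4.04 in GFP mice 13, 21 and 6, and the groups overlapped. Its difference was -0.15 (-0.49 to 0.18), at signals below the median of every array. Neither passed (limma, adjusted p = 0.879 for Disp1 and 0.878 for Scube2).

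Hhip, a membrane-anchored decoy that binds Hedgehog ligands away from Ptch1, showed the clearest separation of the members. Its log2 signals were 7.005, 6.48 and 6.84 in SHH mice 26, 28 and 31, against 5.29, 5.45 and 5.40 in GFP mice 13, 21 and 6. The lowest SHH liver lay 1.03 above the highest GFP liver, against an SD of 0.27 among SHH livers and 0.08 among GFP livers. The 2.62-fold difference had a 95% interval of 2.05 to 3.35-fold, and 33 genes (0.149%) differed upward by at least as much. Hhip ranked 1 of 22180 by unadjusted p and still did not pass (limma, adjusted p = 0.174). Over the alternatives its adjusted p ran from 0.0349 without SHH 26 to 0.747 without GFP 13.

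Ptch1, the receptor proper, showed no such separation. It had log2 signals of 7.11, 7.12 and 6.85 in SHH mice 26, 28 and 31, against 6.99, 7.002 and 7.001 in GFP mice 13, 21 and 6. SHH 26 and SHH 28 were slightly above all GFP livers and SHH 31 was below them. The difference was 0.03 (95% interval -0.26 to 0.32; limma, adjusted p = 0.972), so the interval ended at 1.25-fold, below the lower bound for Hhip. All 6 values were above their arrays' upper quartiles. Leaving out SHH 31 gave 0.12, and leaving out SHH 26 or SHH 28 gave -0.01.

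The unequal change of the ligand-binding pair was measured within each liver. Hhip minus Ptch1 was -0.11, -0.64 and -0.02 in SHH mice 26, 28 and 31, against -1.70, -1.55 and -1.60 in GFP mice 13, 21 and 6. The groups were apart, with SHH 28 nearest to the GFP livers. The SHH minus GFP gap was 1.36 (exact permutation p = 0.1, the smallest possible). Levels of different probe sets are not comparable, so only the gap between groups carries information here.

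**Figure D3:**
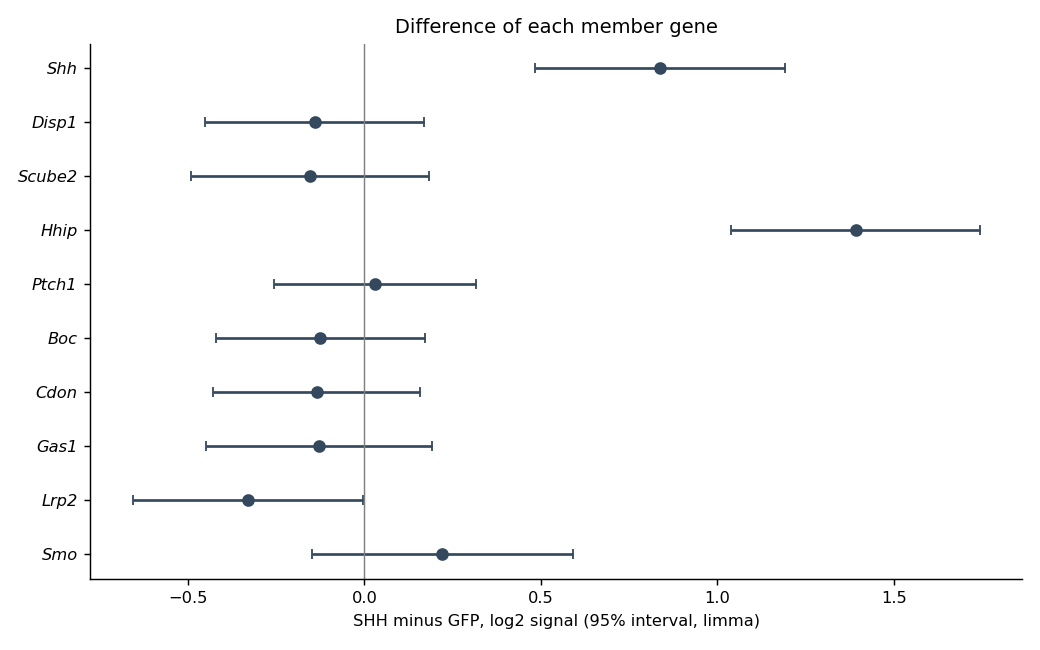
Difference of mean log2 signal, SHH minus GFP, for each member gene with its 95% interval from limma (3 livers against 3). The intervals of Hhip (1.04 to 1.74) and Shh (0.48 to 1.19) lie above 0, that of Lrp2 ends just below 0, and the other 7 include 0.

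Since Hhip and Ptch1 are both known Gli targets, the bases before their annotated starts are shown, from RefSeq (GRCm38.p6), 5′ to 3′ on the gene's strand. Capitals mark the stretch closest to the Gli consensus, or the first such stretch where several matched equally. The Hhip stretch, chr8:80058061-80058258, is 198 bases on the reverse strand and ends where the gene begins. The Ptch1 stretch, chr13:63565736-63565985, is 250 bases on the reverse strand before a start that lies inside the RefSeq span of the gene.
Hhip: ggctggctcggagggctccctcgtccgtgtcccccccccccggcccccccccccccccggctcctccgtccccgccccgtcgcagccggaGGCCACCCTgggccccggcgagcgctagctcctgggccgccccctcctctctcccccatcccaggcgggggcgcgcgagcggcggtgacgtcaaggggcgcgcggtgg
Ptch1: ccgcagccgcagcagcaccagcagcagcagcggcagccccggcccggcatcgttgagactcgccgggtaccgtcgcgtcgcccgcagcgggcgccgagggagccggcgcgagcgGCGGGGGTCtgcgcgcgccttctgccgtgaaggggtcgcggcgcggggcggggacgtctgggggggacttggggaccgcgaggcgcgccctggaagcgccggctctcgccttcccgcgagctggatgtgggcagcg
The consensus searched was GACCACCCA, on both strands (TGGGTGGTC on the other). The capitals match it at 7 of 9 bases for Hhip, and at 6 of 9 on the other strand for Ptch1. Further along the Ptch1 bases shown, other stretches matched at 6 of 9 as well. Of 27025 promoter windows of 300 bases, 0.24% held the full consensus, 6.7% came within 1 base and 58.1% within 2 bases. The table held windows for 8 of the 10 members, and Shh and Boc were not among them. None of the 9 windows of these members held the full consensus or came within 1 base, and 3 came within 2 bases (Hhip, Smo and Lrp2). These letters describe short windows and say nothing about sites elsewhere.

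Boc, Cdon and Gas1 are co-receptors that help Ptch1 take up ligand, and their signals were slightly lower on average in SHH livers. Boc had log2 signals of 4.05, 3.98 and 4.001 in SHH mice 26, 28 and 31, against 4.18, 3.94 and 4.28 in GFP mice 13, 21 and 6. The SHH values lay inside the GFP range, at levels below every array's median. Cdon, the paralogue of Boc, had 4.41, 4.54 and 4.68 in SHH mice 26, 28 and 31, against 4.67, 4.79 and 4.58 in GFP mice 13, 21 and 6. SHH 26 and SHH 28 were below all GFP livers and SHH 31 was not. Gas1, a lipid-anchored surface protein, had 5.50, 5.23 and 5.31 in SHH mice 26, 28 and 31, against 5.64, 5.29 and 5.50 in GFP mice 13, 21 and 6, again with overlap. The differences were -0.12 for Boc (95% interval -0.42 to 0.17), -0.13 for Cdon (-0.43 to 0.16) and -0.13 for Gas1 (-0.45 to 0.19). None of these co-receptors passed (limma, adjusted p of 0.890, 0.875 and 0.893), and the lower ends of their intervals were 0.747, 0.743 and 0.733-fold.

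Lrp2, or megalin, is a large endocytic receptor that binds Shh in the embryonic forebrain and is best known from kidney tubules. Its log2 signals were 3.635, 3.42 and 3.29 in SHH mice 26, 28 and 31, against 3.95, 3.75 and 3.635 in GFP mice 13, 21 and 6. The groups met at a single value, shared by SHH 26 and GFP 6, and were otherwise apart. The difference of -0.33 had a 95% interval of -0.66 to -0.00 and did not pass (limma, adjusted p = 0.677). Whether that interval included 0 depended on the setting. Its upper end was 0.017 with a trended prior and 0.058 with array weights, but -0.0024 with a robust prior. All 6 values were below their arrays' medians. The 5 kidney tubule markers had 4 lower means in SHH livers, where 56.2% of all genes were lower. Their summed log2 signal was 16.9 to 17.7 in SHH livers against 17.1 to 18.6 in GFP livers. These markers were dim, with means of 2.73 to 4.21 in SHH livers and 2.74 to 4.34 in GFP livers, against array medians of 4.32 to 4.40. The part of kidney tubule RNA in the Lrp2 signal was not tested.

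Smo, the membrane protein that carries the signal inward once Ptch1 is bound, had log2 signals of 6.33, 6.09 and 5.86 in SHH mice 26, 28 and 31, against 5.65, 5.94 and 6.03 in GFP mice 13, 21 and 6. SHH 26 and SHH 28 were above all GFP livers and SHH 31 lay inside their range. The difference was 0.22 (95% interval -0.15 to 0.59; limma, adjusted p = 0.825), and it became 0.34 without SHH 31, 0.10 without SHH 26 and 0.11 without GFP 13.

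The SHH livers did not keep a fixed order across members. SHH 26 was the highest of the 3 for 5 members, SHH 28 for 3 and SHH 31 for 2. SHH 31 was the lowest for 5 members (Ptch1, Smo, Disp1, Scube2 and Lrp2), SHH 28 for 4 and SHH 26 for 1. For Shh and Hhip alike, SHH 28 was the lowest of the group. Leaving out both of these genes, the other 8 members averaged -0.02, -0.07 and -0.19 relative to the GFP means in SHH mice 26, 28 and 31.

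Markers of several liver cell types also had different summed signals in the groups. In bulk tissue, more cells of a type and more RNA per cell cannot be told apart. The 11 resting stellate cell markers had 9 higher means, and their summed log2 signal was 73.3 to 74.5 in SHH livers against 71.2 to 73.2 in GFP livers. For the 8 myofibroblast markers, 5 means were higher, with sums of 41.0 to 44.4 in SHH livers against 40.0 to 40.9 in GFP livers. All 6 macrophage and all 5 neutrophil markers had higher means, with macrophage sums of 42.6 to 47.6 in SHH livers against 38.6 to 43.9 in GFP livers and neutrophil sums of 18.6 to 24.98 in SHH livers against 15.4 to 16.9 in GFP livers. The 5 lymphocyte and plasma cell markers all had higher means, with sums of 22.3 to 25.1 in SHH livers against 19.9 to 20.7 in GFP livers, and the 7 sinusoidal endothelium markers all had lower means, with sums of 45.5 to 51.3 in SHH livers against 49.2 to 52.4 in GFP livers. The ranges overlapped for macrophages and sinusoidal endothelium and not for the other 4 of these lists. For the resting stellate cell and myofibroblast markers the sums were barely apart. The lowest SHH sums were 73.34 and 41.04, and the highest GFP sums 73.17 and 40.86. No marker of the 6 lists passed in limma. The portal fibroblast, cholangiocyte and mesothelium lists averaged 0.062, 0.009 and -0.097 in SHH minus GFP livers, each with overlapping sums. The part of these cell types in the Hhip difference was not tested.

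Hhip was also set against the mean of 4 of these marker lists in the same liver, a measure added after the data were seen. The other lists, among them those of lymphocytes and plasma cells and of sinusoidal endothelium, were not used. Such a gap compares the size of the Hhip change with that of a list, and cannot tell which cells hold Hhip RNA. The resting stellate cell, myofibroblast, macrophage and neutrophil lists themselves averaged 0.13, 0.22, 0.68 and 1.2 higher in SHH livers. Relative to the resting stellate cell markers, Hhip was 1.26 higher in SHH than in GFP livers, and relative to the myofibroblast markers 1.17 higher. In each case the groups did not overlap (exact permutation p = 0.1, the smallest possible). Relative to the macrophage markers the gap was 0.71, and relative to the neutrophil markers 0.19, with overlap in both (exact permutation p = 0.2 and 0.8).

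**Figure D4:**
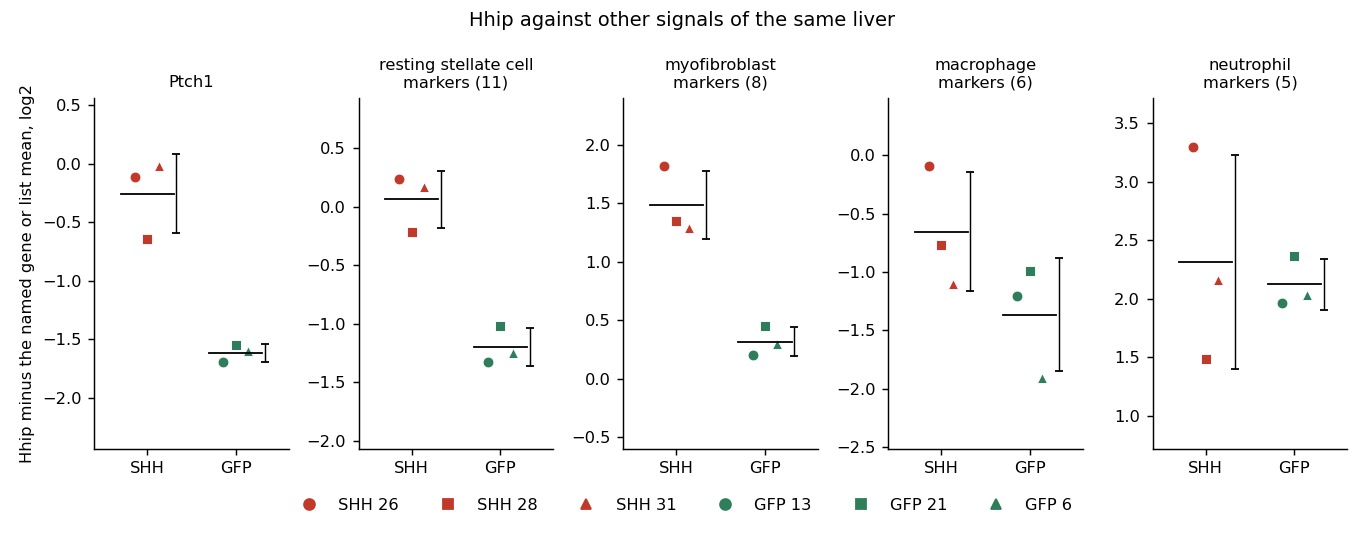
Hhip log2 signal minus that of Ptch1 or minus the mean of a marker list, per liver, in SHH livers (left, red) and GFP livers (right, green), with mean and SD (n = 3 each). The groups are apart against Ptch1, the resting stellate cell markers and the myofibroblast markers, with gaps of 1.36, 1.26 and 1.17, and overlap against the macrophage and neutrophil markers.

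Genes elsewhere in the pathway mostly differed little. Of 56 listed, 52 were measured, 27 with higher and 25 with lower means in SHH livers, and 0 passed in either direction in limma. The other 4 were not analysed here. Over the 52, the median difference was 0.00, and at an unadjusted p under 0.05 there were 3 upward and 0 downward. The groups did not overlap for 6 upward and 5 downward, where 5.26% and 7.25% of all genes were so.

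Among 7 genes for other ligands and for ligand processing, 2 means were higher and 5 lower. Notum, an enzyme that releases glypicans and inactivates Wnt proteins, had log2 signals of 6.84, 6.83 and 6.93 in SHH mice 26, 28 and 31, against 6.58, 6.73 and 6.72 in GFP mice 13, 21 and 6. Scube3, a relative of Scube2, differed by -0.20 without overlap, but the groups were barely apart, with 3.994 in SHH 28 and 4.004 in GFP 6. Ihh and Dhh, the other mammalian ligands and named here after their values were seen, each differed by -0.07 with overlap.

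Glypicans, syndecans and heparan sulphate enzymes shape how ligand spreads and binds, and 7 of 13 had higher means. Gpc3, a glypican that competes with Ptch1 for ligand, had 3.86, 3.95 and 4.04 in SHH mice 26, 28 and 31, against 3.64, 3.42 and 3.63 in GFP mice 13, 21 and 6. The groups were apart, at signals below every array's median, and the difference was 0.39 (limma, adjusted p = 0.576). Sdc2, a syndecan, differed by 0.21 and the sulphatase Sulf1 by -0.27, each without overlap (limma, adjusted p of 0.742 and 0.736). For Sulf1 the groups were barely apart, with 4.2345 in SHH 26 and 4.2354 in GFP 13.

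Of the 17 transducers and Gli factors, 9 had higher means. The groups did not overlap for 1 of 17, downward, where 7.25% of all genes were so, so this count is near the share of all genes. That gene was Gli2, a main activator of targets, with 3.55, 3.53 and 3.55 in SHH mice 26, 28 and 31, against 3.82, 3.82 and 3.73 in GFP mice 13, 21 and 6 (limma, adjusted p = 0.695). Gli1, the usual readout of the pathway, had 3.45, 3.54 and 3.71 in SHH mice 26, 28 and 31, against 3.41, 3.54 and 3.76 in GFP mice 13, 21 and 6, nearly the same range. Both lay below their arrays' medians. The 4 measured regulators of receptor and Smo were split, with 2 means higher and 2 lower, all with overlap.

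Among 11 other target genes, 7 had higher means. Cyclin D1 (Ccnd1), which drives entry into the cell cycle, had 6.71, 7.14 and 7.96 in SHH mice 26, 28 and 31, against 6.22, 5.82 and 6.46 in GFP mice 13, 21 and 6. The mesenchymal factor Foxf1 had 6.69, 6.23 and 6.65 in SHH mice 26, 28 and 31, against 5.97, 6.20 and 5.94 in GFP mice 13, 21 and 6. For Foxf1 the groups were barely apart, with SHH 28 lowest, as it was for Hhip, while for Ccnd1 SHH 26 was lowest. Bmp4, a secreted growth factor, was lower in each SHH liver, at 4.66, 4.62 and 4.62 in SHH mice 26, 28 and 31, against 4.93, 4.85 and 4.68 in GFP mice 13, 21 and 6. None passed (limma, adjusted p of 0.490, 0.576 and 0.795).

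**Figure D5:**
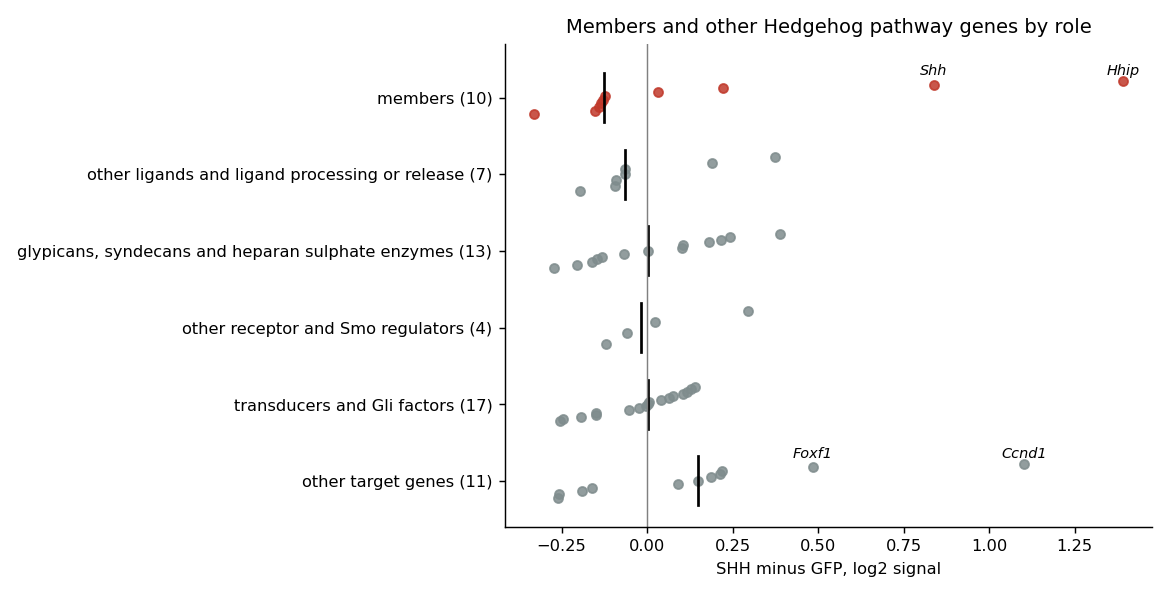
Difference of mean log2 signal, SHH minus GFP, for the 10 members (red) and 52 other pathway genes by role (grey), 1 point per gene, with each row's median as a black line. Hhip (1.39), Ccnd1 (1.10), Shh (0.84) and Foxf1 (0.49) are the labelled points farthest to the right, and the row medians run from -0.13 to 0.15.

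The genes whose pattern over the 6 livers was most like each of Shh and Hhip were sought among 10549 and 10548 genes above the median level. Likeness was the mean absolute difference of log2 signals after centring each gene on its own mean, a description with no test. Closest to Shh were Gbp7 (0.09), Iigp1 (0.11) and Rgs2 (0.13). Gbp7 and Iigp1 encode interferon-induced GTPases and Rgs2 a regulator of G-protein signalling. Closest to Hhip were Irgm2 (0.24), another interferon-induced GTPase, Gbp7 (0.24) and the leukocyte membrane protein gene Cd53 (0.25). Gbp7 had 7.27, 7.01 and 7.58 in SHH mice 26, 28 and 31, against 6.30, 6.38 and 6.49 in GFP mice 13, 21 and 6. Like Shh it was lowest among SHH livers in SHH 28 and lowest among GFP livers in GFP 13. Since Gbp7 was picked for its likeness over these livers, the shared order is no further support.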

How the data were processed

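Per the submitters' processing notes, the deposited log2 signals were made with RMA, which corrects background, equalises the arrays' distributions and summarises probes into probe sets. Its version, the probe set level and the build are not stated in these sources. Platform annotation gave 23521 of 41345 probe sets 1 gene, 1814 several and 16010 none. For each gene the single-gene probe set with the highest mean was used. The groups were tested in R 4.3.3 with limma 3.58.1 (lmFit, eBayes, two-sided, no filter, no covariate), with Benjamini-Hochberg adjustment over 22180 genes. Folds were computed from log2 differences, and array signals tend to understate them for dim genes. Single values had exact permutation tests over 20 splits of the 6 livers. The number of arrays limits the precision.

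The labels give no batch or pairing. Members, lists and tests were chosen with earlier results of these data known. Named genes were the members, Gli1, up to 3 non-overlapping genes per pathway role by unadjusted p, and the 3 genes most like Shh and Hhip. Alternatives covered probe set choice, dim genes, normalization, prior, array weights, threshold and each mouse left out. The scripts were tested on simulated data with independent genes, spreads drawn from the fitted limma prior and 200 changed genes. There, for SHH against GFP over 22180 genes, log2 changes of 2 were recovered in 99.2% of cases and changes of 1 in 73%. These rates check the scripts and do not measure the power in the real livers, where Hhip, with a difference of 1.39, did not pass.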

Additional observations from a re-analysis of the deposited data

How the results depend on the processing

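With 1 mouse left out at a time, the Hhip difference ran from 1.28 to 1.54 (1.28 without SHH 26, adjusted p = 0.0349 in limma) and that of Ptch1 from -0.014 to 0.12 (-0.012 without SHH 26 and -0.014 without SHH 28). Counts past the threshold over all genes ran from 0 to 30 higher and from 0 to 16 lower, and both were 0 except without SHH 26. Members without overlap ran from 2 to 4 upward, with Ptch1 and Smo added without SHH 31, where 8.99% to 10.7% of all genes were so, and from 1 to 2 downward, against 0, where 11.5% to 14% of all genes were so, so the downward counts are near the share of all genes. Among genes above the median level 1 member stood apart upward, since Shh was not among the genes tested there. Relative to the macrophage and neutrophil markers the Hhip difference was 0.71 and 0.19, where those lists themselves averaged 0.68 and 1.2 higher in SHH livers. Shh differed by 0.17 in the probe set that also names 9530036O11Rik. Apart from those of Ptch1, the members' differences kept their sign under every alternative run, and no member other than Hhip passed under any. Several of these runs could not change a sign. Choosing among single-gene probe sets, leaving out dim genes, changing the prior and fitting every probe set leave a member's difference as it was. With signals below the array medians for Boc, Scube2, Lrp2 and most Shh values, small differences there say little. No paired analysis was possible because no mouse number occurs in both groups.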
